A study of Mus musculus with 8 samples.

Results

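Vismodegib, an inhibitor of Smoothened, was compared with no treatment in tumour cells of mouse basal cell carcinoma, and the genes described here are those that moved the same way in both Lgr5-positive and Lgr5-negative cells of the same animals. All 8 arrays of the series were used. They came from 4 mice, and each mouse gave 1 array of Lgr5+Lrig1+ cells and 1 array of cells labelled Lrg5-Lrig1+, called Lgr5-negative below. The arrays of a mouse were averaged on the log2 scale, and the 2 mice labelled Vismodegib were set against the 2 mice labelled Untreated. Of 14403 genes tested, 845 were shared, which means that the mouse means differed at an adjusted p below 0.05 and that, within each population, both treated arrays lay on the same side of both untreated arrays.

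All 4 mice, the untreated ones included, carried the genotype K14-CreER/Ptch1cKO, a conditional deletion of Ptch1 by an inducible Cre under the keratin 14 promoter, which is active in basal keratinocytes. The back skin of mice with basal cell carcinomas and of mice with lesions that tolerated the drug was separated from dermis with thermolysin. Living cells were stained for surface Lrig1 and sorted by green fluorescence from an Lgr5 reporter. The dose and duration of vismodegib and the age of the mice were not given, and the cells after treatment are those still present in the skin. Changes are log2 differences of mouse means, vismodegib minus untreated, with the standard error of the fit after ± and 2 mice in each treatment. Such a design cannot give a two-sided exact permutation p below 0.333, so all p-values come from limma. This linear model draws each gene's estimate of the spread toward a value common to all genes.

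In the Hedgehog pathway, the receptor Ptch1 holds Smoothened inactive until a Hedgehog ligand binds, and free Smoothened leads to activation of the Gli transcription factors. Gli1, Ptch1 and Hhip are among the genes that Gli factors switch on, and their levels serve as readouts of the pathway. Loss of Ptch1 in keratinocytes gives tumours that resemble embryonic hair follicle buds. Lgr5, a receptor for R-spondins, marks stem cells of the hair follicle, and Lrig1 marks progenitors of the upper follicle.

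Keratinocyte genes were high in every array. Krt5 and Krt14, the keratins of basal cells, had levels between 12.23 and 12.92, and the 14 tested basal keratinocyte markers averaged 10.80 to 11.30 in untreated and 10.81 to 11.21 in treated arrays. The 28 tested markers of macrophages and dendritic cells averaged 5.91 to 7.26 in untreated and 7.82 to 8.64 in treated arrays, so these did not overlap. The 6 tested markers of mast cells and neutrophils averaged 6.56 and 7.02 in untreated and 6.50 and 6.40 in treated Lgr5-positive arrays, and 7.37 and 7.64 in untreated and 6.70 and 6.29 in treated Lgr5-negative arrays, so treated arrays were lower within each population. Of these 6, S100a9 (−2.00 ± 0.37) was shared and lower, S100a8 (−2.40 ± 0.51) did not pass the threshold, and the changes of the other 4 lay between −0.07 and 0.17. For the other lists the treatments overlapped in at least 1 population; these were the tested markers of T cells (10), fibroblasts (8), endothelial cells and pericytes (12), melanocytes and Schwann cells (10), Merkel cells (7), and adipocytes and muscle (9). Of the defining markers, Cpa3 (mast cells), Pdgfra (fibroblasts) and Adipoq (adipocytes) did not pass the filter on low signals. The labels name no step that removed leukocytes, and in sorted bulk samples fewer cells of a type and less RNA per cell cannot be told apart. Xist was high and Y-linked genes were near background in all arrays, so the sex of the mice did not differ between groups. Ptch1 was bright in the untreated arrays although it is the deleted gene, and whether its probe set lies inside the deleted part was not determined, so it does not check the deletion.

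**Figure D1:**
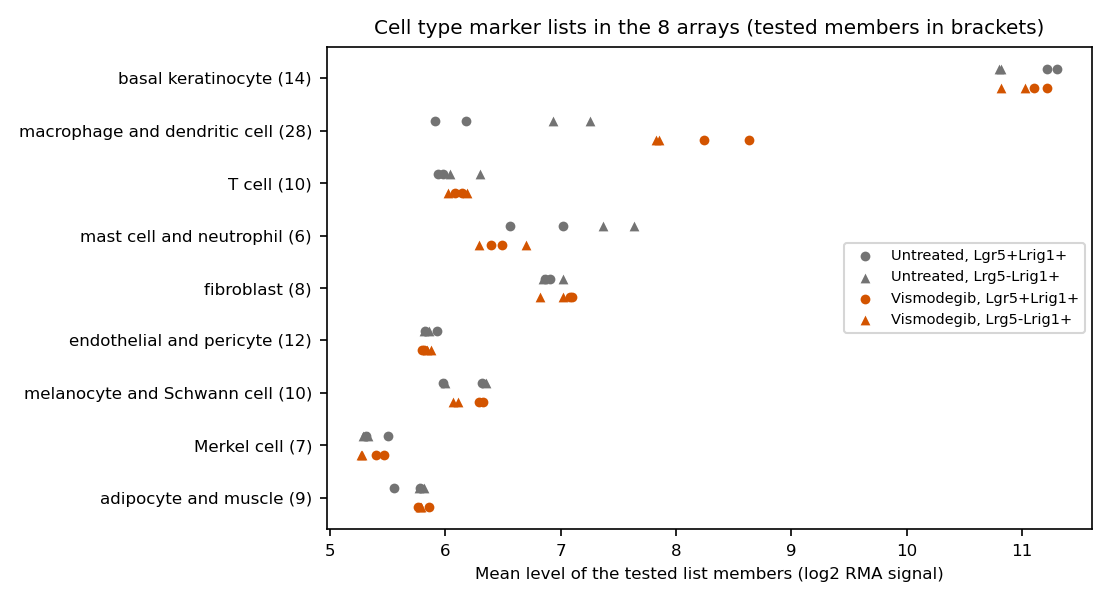
Mean log2 signal of the tested members of 9 cell type marker lists, 1 point per array, with untreated arrays in grey, vismodegib arrays in orange, Lgr5+Lrig1+ cells as circles and Lrg5-Lrig1+ cells as triangles. The treated arrays of the macrophage and dendritic cell list, at 7.82 to 8.64, all lie above its untreated arrays, those of the mast cell and neutrophil list lie below the untreated ones within each population, and basal keratinocyte markers lie between 10.80 and 11.30 throughout.

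Averaged over both populations, 974 genes differed after vismodegib (limma, adjusted p below 0.05), which is 6.76% of those tested, with 512 higher (3.55%) and 462 lower (3.21%). Of these, 845 met the rule for a shared change (5.87% of tested genes), 436 of them higher (3.03%) and 409 lower (2.84%). The other 129 did not, and in 46 genes the changes of the populations had opposite signs. The change reached at least 2-fold in each population in 172 of the shared genes, 85 higher and 87 lower. By overlap alone, 2787 genes (19.4%) had no overlap between treatments in both populations in the same direction, and 1466 had none in opposite directions. A small change can meet the shared rule, and in 279 shared genes the smaller of the changes was under 0.5 on the log2 scale. Signals at or below the filter level of 4.85 have no size of their own. In 48 shared genes both arrays of a treatment were there in at least 1 population, and in 8 (Ereg among them) all 4 arrays of a population were, so that their shared change rests on the other population.

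The change was larger in Lgr5-positive cells in 619 of the 845 shared genes. A difference between the changes was itself called for 70 shared genes, of which 64 changed more in Lgr5-positive and 6 more in Lgr5-negative cells, against 1.4% of all genes tested. Besides the genes whose difference is given below, this held for Aqp3, C1qb, Cldn10, Ctss, Ereg, H2-Ab1, Krt10, Krt15, Lamb1, Meis2, Spry4, Tbx1, Tnfrsf19, Tyrobp and Vim (adjusted p 0.00951 to 0.0422). Tested within a population, 221 of the 845 were called in both, 456 in Lgr5-positive cells alone, 81 in Lgr5-negative cells alone and 87 in neither; of all tested genes, 10.9% were called in Lgr5-positive and 3.32% in Lgr5-negative cells. The shared genes rest on few animals: 223 of the 845 (110 higher and 113 lower) kept an adjusted p below 0.05 when any 1 of the 4 mice was left out, and of the 172 with at least 2-fold changes 121 did. Where a named gene lost its call in this way, the adjusted p without that mouse is given, as a range over genes where several did, with U1 and U2 for the untreated mice and V1 and V2 for the vismodegib mice.

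**Figure D2:**
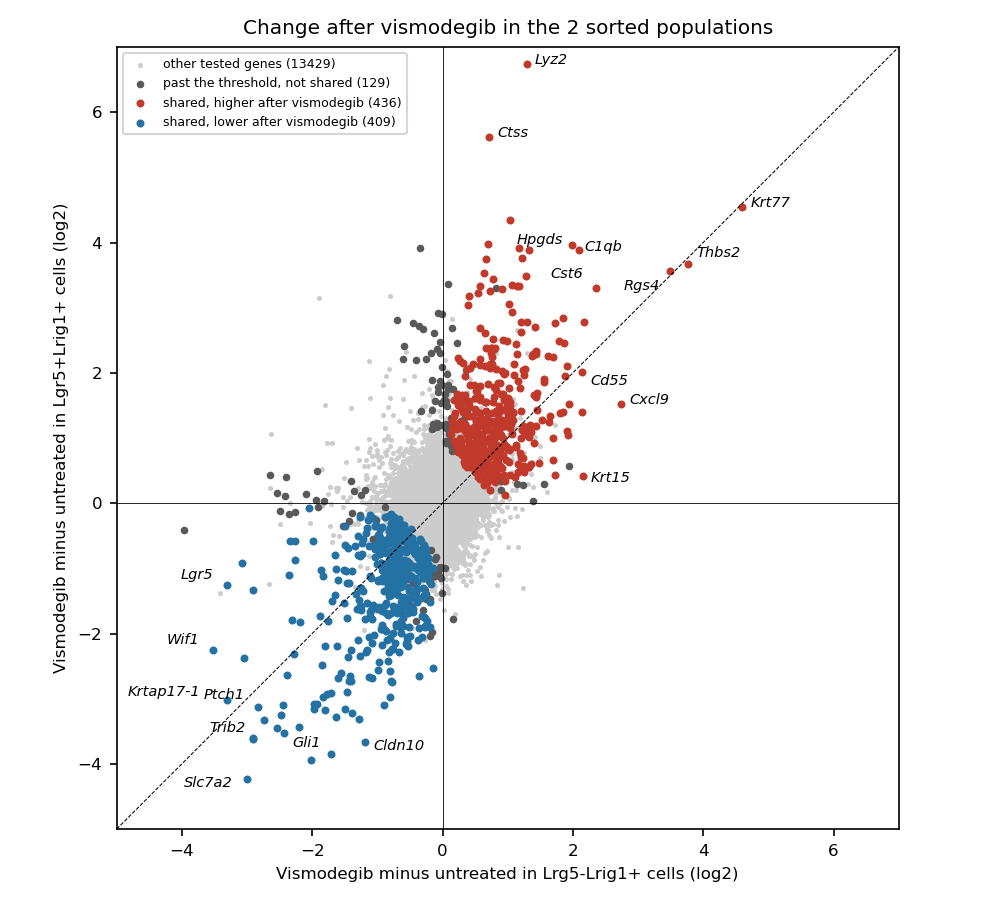
Change after vismodegib in log2 units in Lrg5-Lrig1+ cells (horizontal) and in Lgr5+Lrig1+ cells (vertical), 1 point per tested gene, with a dashed line where both are equal. Krt77, Thbs2 and Rgs4 lie on the line at the upper right, Ptch1 and Krtap17-1 near it at the lower left, and Lyz2 and Ctss far above it; the colours separate 436 shared higher, 409 shared lower and 129 called genes that were not shared.

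Several Hedgehog genes fell in both populations, Gli1, Ptch1 and Hhip among them. Of 21 tested members of the pathway list (23 listed), 8 were shared and lower, 1 was shared and higher, and the median change was −0.36, where the median over all tested genes was 0.00. The median was −0.60 in Lgr5-positive and −0.26 in Lgr5-negative cells. The lists overlap: of the 8 lower members, Spry4 also counts in the EGFR and ERK list and Gas1 in the bulge and outer root sheath list. Gli1, the transcription factor that is itself a Gli target, had levels of 9.73 and 10.13 untreated and 6.42 and 6.39 treated in Lgr5-positive cells, and 9.05 and 8.75 untreated and 6.56 and 6.37 treated in Lgr5-negative cells. The lowest untreated array was at 8.75 and the highest treated one at 6.56, and the change was −2.98 ± 0.09 (7.88-fold, adjusted p = 0.000946). Ptch1 had levels of 11.91 and 11.38 untreated and 8.25 and 8.78 treated in Lgr5-positive cells, and 10.56 and 10.60 untreated and 7.72 and 7.77 treated in Lgr5-negative cells. The lowest untreated array was at 10.56 and the highest treated one at 8.78, and the change was −2.98 ± 0.14 (7.92-fold, adjusted p = 0.00197). Its other probe set gave −1.75. Hhip, which binds and sequesters Hedgehog ligands, changed by −2.98 ± 0.27 (7.89-fold, adjusted p = 0.0071). Its change was −3.94 in Lgr5-positive and −2.02 in Lgr5-negative cells, and its other probe sets gave −1.25, −1.50 and −2.04 on average.

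Among the pathway's transducers, Gli2 changed by −1.06 ± 0.11 (2.08-fold, adjusted p = 0.00893), with levels of 9.45 to 10.31 untreated and 8.49 to 9.15 treated. Gas1, a co-receptor for Hedgehog ligands, changed by −1.28 ± 0.13 (adjusted p = 0.00845), with −1.30 in Lgr5-positive and −1.25 in Lgr5-negative cells. Kif7, a kinesin of the primary cilium that regulates Gli factors, changed by −1.41 in Lgr5-positive and −0.28 in Lgr5-negative cells. Mycn, a proliferation-promoting transcription factor, changed by −1.02 ± 0.10 (adjusted p = 0.00866), and its other probe sets gave −1.68 and 0.09. Ccnd2, a cyclin of the G1 phase, moved the other way, with levels of 9.38 to 10.82 untreated and 11.52 to 12.05 treated and a change of 1.63 ± 0.12 (3.1-fold, adjusted p = 0.00406). The change did not pass the threshold for Smo (−0.10 ± 0.12), Sufu (−0.20 ± 0.14), Gli3 (−0.02 ± 0.10), Boc (−0.36 ± 0.09), Cdon (0.64 ± 0.17), Bcl2 (−0.68 ± 0.18) or Ccnd1 (−0.10 ± 0.14). The calls were lost without U1 for Gli2 and Kif7 (adjusted p 0.051 to 0.0836), without U2 for Gas1, Kif7 and Mycn (0.0511 to 0.0562) and without V1 for Kif7 (0.0612).

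Promoters of Ptch1 and Gli2, which fell in both populations, and of H2-T23, which rose, are shown from 250 bases before to 50 bases after the annotated start (RefSeq, GRCm38.p6), with matches to the letters ACCACCC, the core of the site that Gli factors bind, or to TTTC, any 2 bases and TTTC, the core of the element that interferon-activated factors bind, in capitals on either strand.
Ptch1, chr13:63565686-63565985, minus strand: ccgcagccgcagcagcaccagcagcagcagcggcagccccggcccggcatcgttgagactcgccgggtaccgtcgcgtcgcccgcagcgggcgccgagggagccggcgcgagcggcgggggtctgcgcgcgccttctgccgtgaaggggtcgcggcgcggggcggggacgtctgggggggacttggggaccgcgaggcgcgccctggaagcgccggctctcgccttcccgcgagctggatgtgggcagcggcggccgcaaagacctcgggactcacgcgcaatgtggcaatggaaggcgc
Gli2, chr1:119053570-119053869, minus strand: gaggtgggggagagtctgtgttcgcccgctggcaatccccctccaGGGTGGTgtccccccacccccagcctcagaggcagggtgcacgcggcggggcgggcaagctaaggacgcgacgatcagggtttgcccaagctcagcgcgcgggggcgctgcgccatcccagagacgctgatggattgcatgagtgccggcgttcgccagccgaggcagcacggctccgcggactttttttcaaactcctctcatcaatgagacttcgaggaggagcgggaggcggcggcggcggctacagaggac
H2-T23, chr17:36032652-36032951, minus strand: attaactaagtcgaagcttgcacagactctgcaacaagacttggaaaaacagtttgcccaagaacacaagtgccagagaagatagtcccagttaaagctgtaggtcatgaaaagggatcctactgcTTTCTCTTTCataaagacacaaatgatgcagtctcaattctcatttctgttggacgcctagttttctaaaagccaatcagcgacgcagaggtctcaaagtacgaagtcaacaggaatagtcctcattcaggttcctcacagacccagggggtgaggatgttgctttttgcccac
The Ptch1 window holds no ACCACCC, the Gli2 window holds 1 on the opposite strand, 205 bases before the start, and the H2-T23 window holds 1 match to the interferon element, 124 bases before the start. A promoter was available for 11489 tested genes, among them 319 shared higher and 309 shared lower genes. ACCACCC was in 5.66% of all these promoters, in 7.44% of those of shared lower genes and in 5.96% of those of shared higher genes. The longer form GACCACCCA was in 0.218%, 0.647% and 0.0% of them, and each GACCACCCA also counts as an ACCACCC. The interferon element was in 3.4% of all promoters, in 6.27% of those of shared higher genes (20 genes, among them H2-T23, Cybb and Ctss) and in 1.94% of those of shared lower genes. Of 9 motifs searched after the data were seen, the others were TGACTCA (AP-1; 5.18% of all, 5.64% of shared higher, 4.21% of shared lower), GGAAGTG (ETS; 1729 of 11489, 42 of 319 and 34 of 309), TCACNCCAC (sterol response; 1.56%, 1.57% and 0.971%), CCAAT (42.2%, 39.2% and 40.8%), GGGACTTT followed by CC (NF-kappaB; 0.252%, 0.313% and 0.0%) and CCATATTA followed by GG (serum response; 0.0435%, 0.313% and 0.324%). These shares are descriptions of the windows.

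Part of the follicle bud and bulge genes fell as well. Of 19 tested genes of embryonic follicle progenitors, 6 were shared and lower and 0 higher. Of 24 tested bulge and outer root sheath genes, 9 were lower and 2 higher, with a median change of −0.46. Lhx2, a LIM homeobox factor of follicle stem cells, had levels of 10.67 and 10.75 untreated and 7.41 and 7.86 treated in Lgr5-positive cells, and 8.58 and 8.37 untreated and 6.63 and 6.35 treated in Lgr5-negative cells, a change of −2.53 ± 0.09 (5.77-fold, adjusted p = 0.00123). Sox4 changed by −1.30 ± 0.09 (adjusted p = 0.00361) and Sox13 by −2.78 ± 0.13 (adjusted p = 0.00193). The change of Sox13 was −3.84 in Lgr5-positive and −1.71 in Lgr5-negative cells, and the difference between these changes was −2.14 with a 95% interval of −2.86 to −1.41 and an adjusted p of 0.0272. Lgr5 itself, on which the cells were sorted, fell in both populations, from 10.98 and 11.00 to 9.44 and 10.03 in Lgr5-positive arrays and from 8.52 and 8.40 to 5.46 and 4.83 in Lgr5-negative arrays. Its fall was larger in Lgr5-negative cells, and the difference of the changes was 2.06 with a 95% interval of 1.25 to 2.87 and an adjusted p of 0.0413. A treated Lgr5-negative array, at 4.83, was below the filter level; raised to that level, the difference was 2.05. The bulge keratin Krt15 rose, from 9.47 to 9.68 untreated to 11.65 to 11.81 treated in Lgr5-negative cells and by 0.42 in Lgr5-positive cells, where it was already at 11.12 and 11.34. Its mean change was 1.28 ± 0.12 (2.44-fold, adjusted p = 0.00778). Among the other shared and lower members of these lists, the calls were lost without U1 for Alcam, Fzd2 and Tcf7l2 (adjusted p 0.0965 to 0.157), without U2 for Tbx1, Lef1, Tcf7l1, Fzd2 and Tcf7l2 (0.0532 to 0.149), without V1 for Alcam, Tcf7l2 and Bmp6 (0.0937 to 0.114) and without V2 for Alcam, Tcf7l1, Tcf7l2 and Bmp6 (0.0526 to 0.104).

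Secreted Wnt regulators changed in both directions. Wif1, a secreted protein that binds Wnt ligands, fell 7.43-fold, with levels of 10.24 and 10.26 untreated and 7.71 and 8.28 treated in Lgr5-positive cells, and 9.32 and 9.16 untreated and 5.57 and 5.86 treated in Lgr5-negative cells, and the change was −2.89 ± 0.16 (adjusted p = 0.00238). Dkk3 changed by −1.39 ± 0.16 (adjusted p = 0.0123). Wnt5a, named here after its values were seen, changed by −1.45 ± 0.12 (2.73-fold, adjusted p = 0.00515). Apcdd1, an inhibitor of Wnt signalling at the membrane, rose, with a change of 1.62 ± 0.18 (3.07-fold, adjusted p = 0.0101). Tnfrsf19, a receptor of the tumour necrosis factor family that is a Wnt target, rose from levels of 6.43 to 8.08 untreated to levels of 9.06 to 9.24 treated, a change of 1.92 ± 0.13 (adjusted p = 0.00325), with 2.63 in Lgr5-positive and 1.21 in Lgr5-negative cells. Of 18 tested Wnt targets, 3 were shared and higher (Myc, Tnfrsf19 and Apcdd1) and 3 lower (Lef1, Tcf7l1 and Lgr5), with a median of −0.02. The change of Myc, which drives growth and ribosome synthesis, was 1.01 ± 0.18 (2.01-fold, adjusted p = 0.0376). The calls were lost without U1 for Myc and Dkk3 (adjusted p 0.0661 to 0.0674), without U2 for Dkk3 (0.0673), without V1 for Myc (0.0816) and without V2 for Myc (0.0931).

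Other shared changes in secreted signals included Tgfb3, Fst and Tgfb2. Tgfb3 had levels of 9.21 to 10.84 untreated and 7.51 to 7.94 treated, a change of −2.18 ± 0.16 (4.52-fold, adjusted p = 0.00383). Follistatin (Fst), which binds and blocks activins, had levels of 9.49 to 10.13 untreated and 10.93 to 11.70 treated, a change of 1.53 ± 0.13 (2.9-fold, adjusted p = 0.00621). Tgfb2 rose by 1.29 (adjusted p = 0.0167, and 0.0827 without U2). Of 29 tested BMP and TGF-beta genes, 2 were shared and higher and 2 lower (13.8%, against 5.87% of all tested genes). Fstl1, a secreted glycoprotein related to follistatin and named after its values were seen, fell, with levels of 6.85 to 10.08 untreated and 4.84 to 6.61 treated and a change of −2.56 ± 0.23 (5.92-fold, adjusted p = 0.00678). Of 18 tested Notch genes, 3 were shared and higher (Notch3, Dll1 and Rfng) and 0 lower (16.7%, against 5.87% of all tested genes). The receptor Notch3 changed by 1.24 ± 0.12 (2.35-fold, adjusted p = 0.00827), with 1.39 in Lgr5-positive and 1.08 in Lgr5-negative cells. For the other members the calls were lost without U1 for Dll1 and Rfng (adjusted p 0.0782 to 0.112), without U2 for Rfng (0.136), without V1 for Dll1 (0.103) and without V2 for Dll1 and Rfng (0.0669 to 0.091).

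Feedback genes of the ERK kinase pathway were among those that fell. Of 20 tested EGFR and ERK members, 8 were shared and lower (7 without Ereg, which was at or below the filter level in all Lgr5-positive arrays), 1 (Errfi1) was higher, and the median change was −0.36. Sprouty genes encode inhibitors of receptor tyrosine kinase signalling that the pathway itself induces. Spry4 had levels of 9.50 and 9.16 untreated and 6.07 and 5.97 treated in Lgr5-positive cells, and 6.94 and 7.05 untreated and 5.58 and 5.84 treated in Lgr5-negative cells. Its untreated levels lay far apart between the populations and its treated levels did not, and the change was −2.30 ± 0.10 (4.91-fold, adjusted p = 0.00147). Spry1 changed by −1.43 ± 0.16 (adjusted p = 0.0107) and Spry2 by −1.07 ± 0.11 (adjusted p = 0.00946). Etv4, an ETS transcription factor induced by ERK, had levels of 8.57 to 10.24 untreated and 7.37 to 7.91 treated, a change of −1.73 ± 0.13 (3.31-fold, adjusted p = 0.00412). The EGFR ligand Epgn changed by −1.22 in Lgr5-positive and −1.43 in Lgr5-negative cells, and the ligand Ereg fell in Lgr5-negative cells, from 5.84 and 5.96 to 3.90 and 3.80, or by at least 1.05 on the log2 scale with the treated arrays raised to the filter level. Egfr itself (−0.10 ± 0.14) and Dusp6 (−0.25 ± 0.20) did not pass the threshold. Of 22 tested immediate early genes, 2 were shared and lower (Egr3, −0.67, and Maff, −1.07), which is 9.09% against 5.87% of all tested genes. Calls of this pathway were lost without U1 for Spry2, Etv5, Spred1, Errfi1, Egr3 and Maff (adjusted p 0.0501 to 0.163), without U2 for Etv5, Spred1, Errfi1, Egr3 and Maff (0.0549 to 0.175), without V1 for Spred1 and Errfi1 (0.0837 to 0.126) and without V2 for Spred1 and Egr3 (0.0681 to 0.109).

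The 15 shared genes that fell most and the 15 that rose most, ranked by the smaller of the changes in the populations, were compared between the populations. Of these 30, 29 were called in each population separately and 26 kept their call without any 1 mouse. Ranking by the smaller change favours such genes, so these counts describe the choice. Among all 845 shared genes, 221 were called in both populations and 223 kept their call without any 1 mouse. A difference between the populations was called for 2 of the 30 (Hpgds and C1qb). That does not make the others alike, since the 95% interval of the difference stayed within 2-fold in either direction for 4 of the 30. For Fras1 the difference was −0.04 with a 95% interval of −0.50 to 0.43 and an adjusted p of 0.94, and for Cd55 it was −0.12 with a 95% interval of −0.49 to 0.24 and an adjusted p of 0.718. For Krt77, whose mean difference was as small, the interval was wider: −0.04 with a 95% interval of −1.40 to 1.32 and an adjusted p of 0.979. The rank cut lay at −2.20 for lower and 1.69 for higher genes, and Hhip (−2.98 on average) was below it because its Lgr5-negative change was −2.02.

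**Figure D3:**
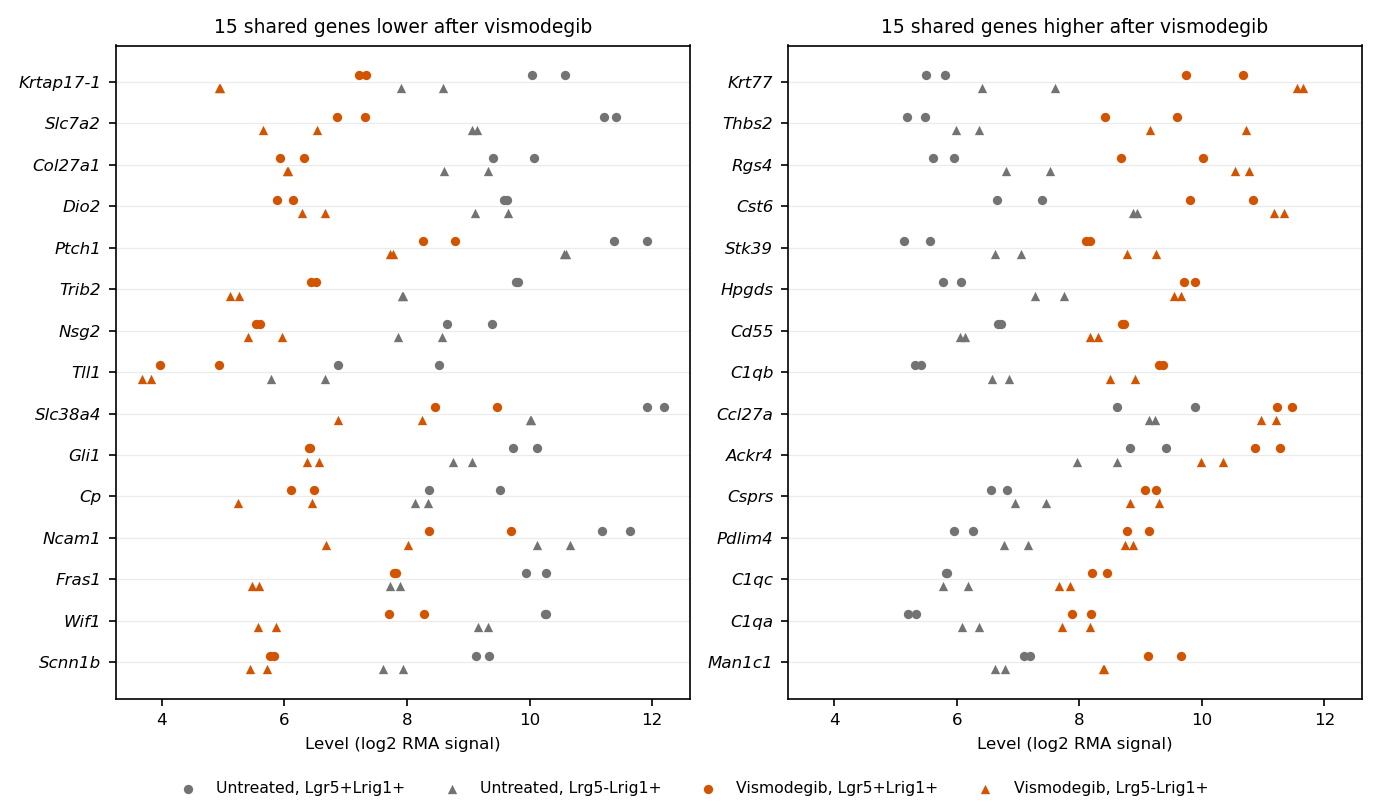
Level (log2 RMA signal) of the 15 shared genes with the largest fall (left) and the 15 with the largest rise (right) in each of the 8 arrays, with grey for untreated, orange for vismodegib, circles for Lgr5+Lrig1+ and triangles for Lrg5-Lrig1+ cells. Within each population the grey and orange points do not overlap, which the choice of genes fixes; Slc7a2 falls by 3.62 and Krt77 rises by 4.57 on average.

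Transport and nutrient genes stood among those that fell most. Slc7a2, a transporter of cationic amino acids, had levels of 11.41 and 11.22 untreated and 7.31 and 6.86 treated in Lgr5-positive cells, and 9.14 and 9.06 untreated and 6.54 and 5.64 treated in Lgr5-negative cells. All treated arrays were at 7.31 or below and all untreated arrays at 9.06 or above, a change of −3.62 ± 0.23 (12.3-fold, adjusted p = 0.00314). Slc38a4, another amino acid transporter, changed by −2.77 ± 0.38 (6.82-fold, adjusted p = 0.0176), and the treated mice lay apart, at 6.87 and 8.46 in mouse 1 and 8.25 and 9.47 in mouse 2. Scnn1b, a subunit of the epithelial sodium channel, had levels of 7.61 to 9.34 untreated and 5.43 to 5.83 treated, a change of −2.81 ± 0.09 (7.03-fold, adjusted p = 0.00103). Trpv4, a calcium-permeable channel, changed by −1.69 ± 0.11 (3.23-fold, adjusted p = 0.00314), with −2.57 in Lgr5-positive and −0.81 in Lgr5-negative cells, and the difference of these changes was −1.75 with a 95% interval of −2.31 to −1.20 and an adjusted p of 0.0225. Of 22 tested amino acid and nutrient transporters, 6 were shared and lower and 2 higher. Slc7a5 (−0.79), Slc38a2 (−0.58), Slc6a6 (−0.96), which carries taurine, and Slc2a9 (−1.04) were the other lower members. The glutamine transporter Slc1a5 (1.24) and the chloride cotransporter Slc12a2 (0.46) were higher. Of the transporter calls, some were lost without U1 for Slc38a4, Slc7a5, Slc38a2, Slc2a9, Slc1a5 and Slc12a2 (adjusted p 0.0614 to 0.14), without U2 for Slc38a4, Slc7a5, Slc38a2, Slc6a6, Slc1a5 and Slc12a2 (0.0625 to 0.207), without V1 for Slc7a5, Slc38a2 and Slc12a2 (0.0553 to 0.102) and without V2 for Slc7a5, Slc38a2 and Slc12a2 (0.0534 to 0.136).

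Several of the largest falls were in genes outside these functions. Dio2, the enzyme that converts thyroxine to active thyroid hormone, had levels of 9.63 and 9.59 untreated and 6.15 and 5.88 treated in Lgr5-positive cells, and 9.65 and 9.11 untreated and 6.28 and 6.67 treated in Lgr5-negative cells. The populations lay close together in each treatment, and the change was −3.25 ± 0.13 (9.52-fold, adjusted p = 0.00126). Trib2, a pseudokinase that binds ubiquitin ligases, had levels of 9.81 and 9.78 untreated and 6.51 and 6.44 treated in Lgr5-positive cells, and 7.91 and 7.94 untreated and 5.11 and 5.26 treated in Lgr5-negative cells. Its change was −3.32 in Lgr5-positive and −2.74 in Lgr5-negative cells, and the difference of these changes was −0.58 with a 95% interval of −0.94 to −0.22 and an adjusted p of 0.121. Nsg2, a neuronal vesicle protein, changed by −2.99 ± 0.25 (7.95-fold, adjusted p = 0.00563). Krtap17-1, a keratin-associated protein of the hair shaft, changed by −3.17 ± 0.21 (8.97-fold, adjusted p = 0.00327). Its Lgr5-negative arrays after treatment were at 4.93 and 4.95, close to the filter level of 4.85, so the change there is bounded by the background. Aldh1a3, which makes retinoic acid, had levels of 7.53 to 9.16 untreated and 6.17 to 6.44 treated. Its change was −1.34 in Lgr5-positive and −2.91 in Lgr5-negative cells, and the difference of these changes was 1.57 with a 95% interval of 1.08 to 2.06 and an adjusted p of 0.0211. Cirbp, a cold-inducible RNA-binding protein named after its values were seen, changed by −1.83 in Lgr5-positive and −2.19 in Lgr5-negative cells. Ceruloplasmin (Cp), a copper-carrying ferroxidase, changed by −2.51 ± 0.33 (5.71-fold, adjusted p = 0.0164), and Ncam1, a neural adhesion molecule, by −2.71 ± 0.44 (6.55-fold, adjusted p = 0.0304). These last calls were lost without U1 for Ncam1 (adjusted p 0.12) and without U2 for Cp and Ncam1 (0.0707 to 0.1).

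Matrix genes moved in both directions, with more of them lower than higher. Of the 27 tested members of the collagen and matrix list, 7 were shared and lower and 4 higher, and 16 were neither. Of 34 collagen genes tested, counted by symbol after the data were seen, 9 were shared and lower (Col27a1, Col4a1, Col4a2, Col4a3, Col4a4, Col5a2, Col2a1, Col14a1 and Col18a1) and 3 higher (Col12a1, Col16a1 and Col4a6). Collagen IV forms the network of basement membranes. Col4a1 had levels of 11.53 and 11.46 untreated and 9.51 and 9.87 treated in Lgr5-positive cells, and 10.84 and 10.28 untreated and 8.88 and 8.72 treated in Lgr5-negative cells, and all treated arrays were below all untreated arrays, a change of −1.78 ± 0.13 (3.43-fold, adjusted p = 0.00392). Col4a2 changed by −1.43 ± 0.13, Col4a3 by −1.59 ± 0.13 and Col4a4 by −2.16 ± 0.13 (adjusted p = 0.00706, 0.00443 and 0.00255). Col4a6 went the other way, with a change of 1.17 ± 0.12 (2.25-fold, adjusted p = 0.0093) and levels of 6.87 to 7.64 untreated and 8.16 to 8.70 treated. Col27a1, a fibrillar collagen of cartilage, had levels of 10.07 and 9.41 untreated and 6.32 and 5.93 treated in Lgr5-positive cells, and 9.33 and 8.61 untreated and 6.04 and 6.06 treated in Lgr5-negative cells, a change of −3.26 ± 0.23 (9.61-fold, adjusted p = 0.00364), and its other probe set gave −1.69.

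Fras1, an extracellular matrix protein that anchors epidermis to dermis, had levels of 10.27 and 9.95 untreated and 7.82 and 7.78 treated in Lgr5-positive cells, and 7.88 and 7.72 untreated and 5.59 and 5.47 treated in Lgr5-negative cells, and the change was −2.31 in Lgr5-positive and −2.27 in Lgr5-negative cells (mean −2.29 ± 0.12, adjusted p = 0.00197). Npnt, an integrin ligand of the bulge basement membrane, changed by −1.30 ± 0.10 (2.47-fold, adjusted p = 0.00412). The proteoglycan biglycan (Bgn) changed by −2.08 ± 0.10 (4.24-fold, adjusted p = 0.00197). Of 20 tested integrins and laminins, 3 were shared and lower and 0 higher (15%, against 5.87% of all tested genes), all 3 being laminins. Lamb1 changed by −1.51 ± 0.14 (2.85-fold, adjusted p = 0.00749), with −2.24 in Lgr5-positive and −0.78 in Lgr5-negative cells, and the others were Lama3 (−0.84) and Lamc1 (−0.60). Tll1, a metalloprotease that cleaves procollagens, changed by −2.86 ± 0.19 (7.25-fold, adjusted p = 0.00327), and in 3 of its 4 treated arrays it was below the filter level, so its change is bounded by the background. The protease inhibitor Serpina3n changed by −2.40 ± 0.20 (5.29-fold, adjusted p = 0.00563). Thrombospondin 2 (Thbs2), a matrix protein that modulates cell attachment, rose, with levels of 5.19 and 5.48 untreated and 8.42 and 9.60 treated in Lgr5-positive cells, and 6.36 and 5.99 untreated and 9.16 and 10.71 treated in Lgr5-negative cells. All treated arrays were above all untreated ones, the change was 3.72 ± 0.43 (13.2-fold, adjusted p = 0.0113), and vismodegib mouse 2 was above mouse 1 in each population. Of the matrix genes, calls were lost without U1 for Thbs2, Lama3, Lamc1, Col18a1 and Col12a1 (adjusted p 0.059 to 0.144), without U2 for Thbs2, Lama3, Lamc1, Col18a1, Col12a1, Col16a1 and Col4a6 (0.0549 to 0.191), without V1 for Lama3, Lamc1, Col2a1, Col14a1 and Col18a1 (0.0525 to 0.11) and without V2 for Col14a1 and Col12a1 (0.0532 to 0.0987).

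Junction genes moved in both directions. Of 24 tested claudins, connexins and desmosomal genes, 5 were shared and lower (Cldn10, Cldn12, Gja1, Gjb2 and Gjb6) and 2 higher (Dsg1a and Dsg2). The mean change was above 0 for 14 and below 0 for 10. The list's median was 0.08, with 0.15 in Lgr5-positive and 0.06 in Lgr5-negative cells. Cldn10, a tight junction protein, had levels of 5.81 to 8.53 untreated and 4.70 to 4.89 treated, and both treated Lgr5-positive arrays were at or below the filter level. Its change was −2.42 ± 0.14 (5.36-fold, adjusted p = 0.00239), with −3.66 in Lgr5-positive and −1.19 in Lgr5-negative cells. The 3 connexins form gap junction channels. Gjb2 had levels of 9.29 to 10.48 untreated and 7.85 to 8.45 treated, a change of −1.73 ± 0.12 (3.31-fold, adjusted p = 0.00361), with −1.10 in Lgr5-positive and −2.36 in Lgr5-negative cells. Gja1 changed by −0.98 in Lgr5-positive and −0.93 in Lgr5-negative cells, and Gjb6 by −0.70 in Lgr5-positive and −1.04 in Lgr5-negative cells. Nrp2, a receptor for semaphorins and VEGF-C, changed by −1.91 ± 0.13 (3.75-fold, adjusted p = 0.0035). The calls of the junction genes were lost without U1 for Cldn12, Gjb6, Dsg1a and Dsg2 (adjusted p 0.0716 to 0.143), without U2 for Cldn12, Gja1, Gjb6, Dsg1a and Dsg2 (0.0563 to 0.19), without V1 for Cldn12, Dsg1a and Dsg2 (0.0646 to 0.122) and without V2 for Cldn12 and Dsg2 (0.082 to 0.104).

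Lipid synthesis genes that changed were lower. Of 22 tested cholesterol and fatty acid synthesis genes (28 listed), 7 were shared and lower and 0 higher, and the median was −0.47, with −0.53 in Lgr5-positive and −0.47 in Lgr5-negative cells. Lss, which closes the sterol rings, had levels of 7.15 to 7.48 untreated and 5.77 to 6.66 treated, a change of −1.12 ± 0.17 (2.18-fold, adjusted p = 0.0257). Scd1, the stearoyl-CoA desaturase, changed by −1.08 ± 0.18, Msmo1 by −0.80 ± 0.13, Mvd by −0.74 ± 0.12, Insig1 by −0.61 ± 0.12 and Fads2 by −0.69 ± 0.11. Fads1, a desaturase of polyunsaturated fatty acids, changed by −1.32 ± 0.13 (2.49-fold, adjusted p = 0.00841), with −1.99 in Lgr5-positive and −0.64 in Lgr5-negative cells, and the difference of these changes was −1.35 with a 95% interval of −1.91 to −0.80 and an adjusted p of 0.044. Hmgcs1 (−0.13 ± 0.10) and Sqle (−0.03 ± 0.10) did not pass the threshold. Apart from Fads1, each member lost its call when at least 1 mouse was left out, without U1 for Lss, Msmo1, Insig1, Scd1 and Fads2 (adjusted p 0.063 to 0.165), without U2 for Lss, Mvd, Msmo1, Insig1, Scd1 and Fads2 (0.117 to 0.147), without V1 for Mvd, Msmo1, Insig1, Scd1 and Fads2 (0.0597 to 0.113) and without V2 for Mvd and Fads2 (0.085 to 0.0858).

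Of 28 tested mitosis genes, 3 were shared and lower and 0 higher, which is 10.7% of the list, against 5.87% of all tested genes. The mean change was below 0 for 26 of the 28, and the median was −0.36, with −0.13 in Lgr5-positive and −0.59 in Lgr5-negative cells. These were Cdca3 (−1.01 ± 0.14), Aurkb (−0.65 ± 0.12) and Plk1 (−0.52 ± 0.10), and their calls were lost without U1 for Aurkb and Plk1 (adjusted p 0.0586 to 0.0979), without U2 for Cdca3, Aurkb and Plk1 (0.0724 to 0.204), without V1 for Aurkb and Plk1 (0.108 to 0.114) and without V2 for Cdca3, Aurkb and Plk1 (0.0503 to 0.132). Mki67 (−0.36 ± 0.16) and Top2a (−0.01 ± 0.16) did not pass the threshold. Of 29 tested DNA replication genes, 1 was shared and higher and 1 shared and lower (6.9%, against 5.87% of all tested genes). The mean change was below 0 for 23 of the 29. The median was −0.11, with −0.03 in Lgr5-positive and −0.35 in Lgr5-negative cells. The CDK inhibitor Cdkn2b fell, with levels of 6.57 to 8.82 untreated and 5.88 to 6.40 treated and a change of −1.76 ± 0.19 (3.39-fold, adjusted p = 0.00967). None of 23 tested p53 target and apoptosis genes and none of 28 respiratory chain genes was shared. In the respiratory chain list the populations had opposite medians (0.18 in Lgr5-positive and −0.24 in Lgr5-negative cells), and 4 of the 28 members had the same sign in both.

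**Figure D4:**
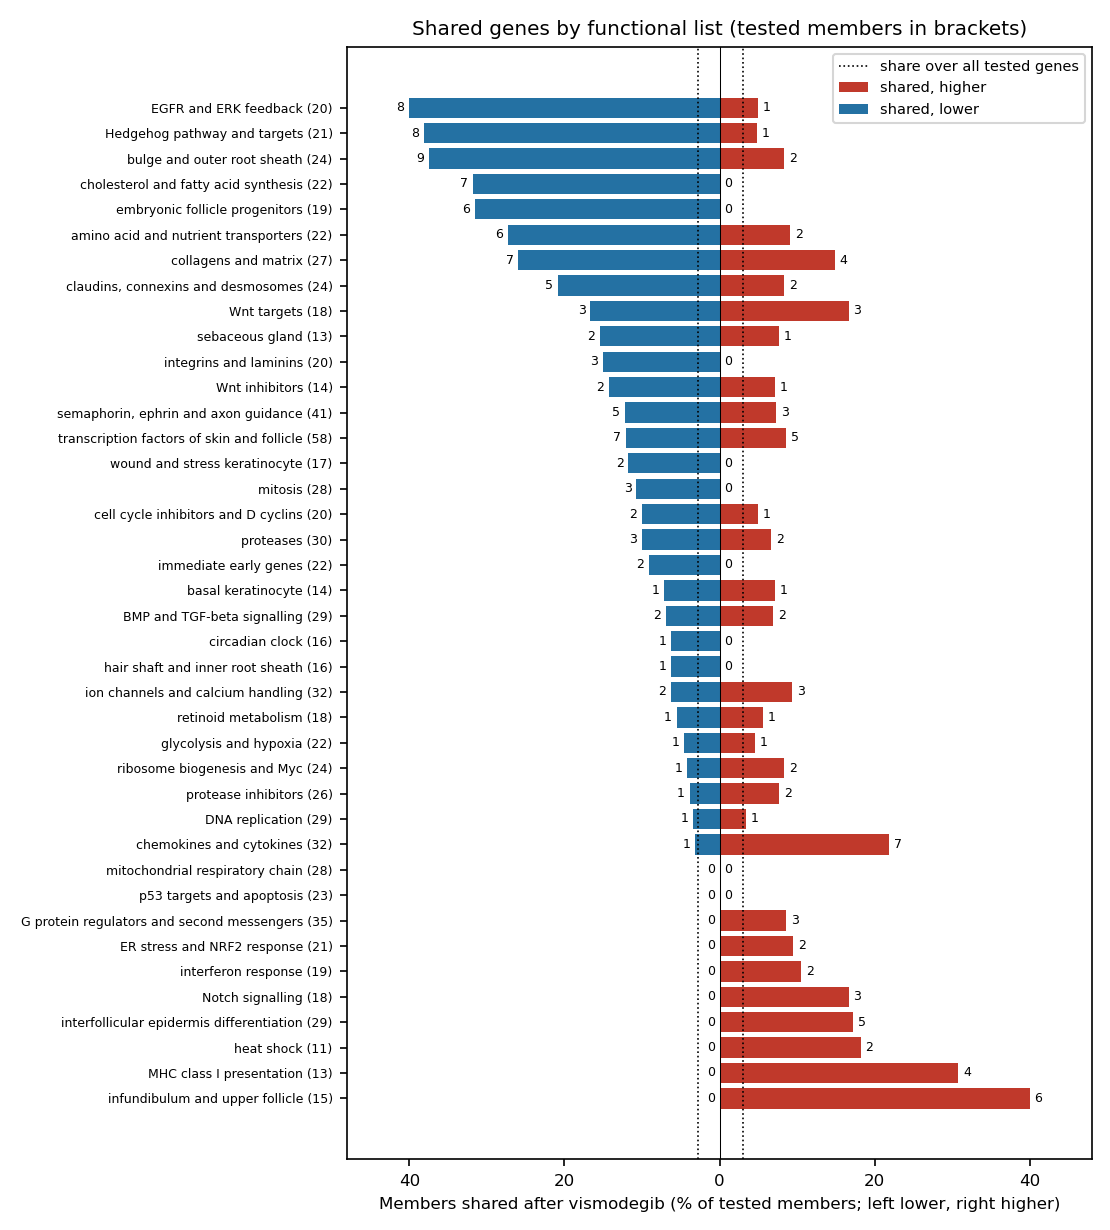
Share of the tested members of 40 functional lists that were shared and lower (blue, left) or shared and higher (red, right) after vismodegib, in percent, with the number of genes at the end of each bar and dotted lines at the shares over all tested genes (2.84% lower, 3.03% higher). EGFR and ERK feedback (8 of 20), Hedgehog (8 of 21) and bulge genes (9 of 24) have the longest bars to the left, and upper follicle genes (6 of 15) and MHC class I presentation (4 of 13) the longest to the right. The EGFR and ERK count includes Ereg, which was at or below the filter level in all Lgr5-positive arrays. Some genes count in several lists, such as Spry4 in the EGFR and ERK and the Hedgehog lists.

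Of 15 tested infundibulum and upper follicle genes, 6 were shared and higher (Cst6, Defb6, Gata6, Krt80, Fst and Defb1) and 0 lower. Krt77, a keratin of suprabasal epidermis and sweat ducts, belongs to the interfollicular differentiation list below and had the largest shared change. Its levels were 5.49 and 5.81 untreated and 10.66 and 9.74 treated in Lgr5-positive cells, and 7.60 and 6.41 untreated and 11.64 and 11.55 treated in Lgr5-negative cells. The lowest treated array was at 9.74 and the highest untreated one at 7.60, and the change was 4.57 ± 0.22 (23.8-fold, adjusted p = 0.00197), with 4.55 in Lgr5-positive and 4.59 in Lgr5-negative cells. Cst6, an inhibitor of cysteine proteases in the infundibulum and cornified layers, had levels of 6.65 and 7.39 untreated and 10.84 and 9.80 treated in Lgr5-positive cells, and 8.87 and 8.94 untreated and 11.34 and 11.18 treated in Lgr5-negative cells, a change of 2.83 ± 0.24 (7.1-fold, adjusted p = 0.00533). Krt80 changed by 1.54 ± 0.10 (2.9-fold, adjusted p = 0.00325), with 1.64 in Lgr5-positive and 1.44 in Lgr5-negative cells. The defensins Defb1 (2.10 ± 0.11) and Defb6 (1.30 ± 0.14) rose too, at adjusted p = 0.00232 and 0.0102. Defb1 changed by 3.43 in Lgr5-positive and 0.77 in Lgr5-negative cells, and the difference of these changes was 2.67 with a 95% interval of 1.56 to 3.77 and an adjusted p of 0.0461. Gata6, a transcription factor of the upper follicle and sebaceous duct, changed by 0.96 ± 0.10 (adjusted p = 0.00866, and 0.0562 without U2).

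Of 29 tested genes of interfollicular differentiation, 5 were shared and higher (Krt77, Krt10, Dsg1a, Calml3 and Aqp3) and 0 lower. That is 17.2%, against 5.87% of all tested genes. The mean change was above 0 for 17 and below 0 for 12, and the list's median was 0.49 in Lgr5-positive and −0.38 in Lgr5-negative cells. Aqp3, a channel for water and glycerol, had levels of 8.50 and 9.77 untreated and 12.92 and 12.85 treated in Lgr5-positive cells, and 11.94 and 11.96 untreated and 12.67 and 12.57 treated in Lgr5-negative cells. The untreated Lgr5-positive arrays stood alone at the low end, and the change was 2.21 ± 0.22 (4.62-fold, adjusted p = 0.00841), with 3.75 in Lgr5-positive and 0.66 in Lgr5-negative cells. Krt10, the keratin of the spinous layer, showed the same order, with 1.68 in Lgr5-positive and 0.22 in Lgr5-negative cells (mean 0.95 ± 0.10, adjusted p = 0.00911). Krt1 (0.65 ± 0.24), Ivl (0.56 ± 0.14) and Lor (−0.16 ± 0.33) did not pass the threshold. Calml3 was higher by 0.82 and Dsg1a by 0.83. Their calls and that of Krt10 were lost without U1 for Krt10, Calml3 and Dsg1a (adjusted p 0.0523 to 0.0716), without U2 for Calml3 and Dsg1a (0.0576 to 0.165) and without V1 for Dsg1a (0.103). Of 17 tested wound and stress keratinocyte genes, 2 were shared and lower (S100a9 and Ereg), which is 11.8% against 5.87% of all tested genes. Ereg was at or below the filter level in all Lgr5-positive arrays. The list's median was −0.87, with −1.81 in Lgr5-negative and −0.08 in Lgr5-positive cells. S100a9 is also a marker of neutrophils, and its call was lost, at an adjusted p of 0.0833 without U2, 0.0577 without V1 and 0.103 without V2. The part of neutrophils in its change was not tested.

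Transcription factors of skin divided into 5 shared higher and 7 shared lower of 58 tested (20.7%, against 5.87% of all tested genes). Sox21 rose, with levels of 7.12 and 8.01 untreated and 10.67 and 10.82 treated in Lgr5-positive cells, and 10.19 and 10.56 untreated and 10.62 and 10.93 treated in Lgr5-negative cells. The 2 untreated Lgr5-positive arrays were below all others, and the change was 3.18 in Lgr5-positive and 0.40 in Lgr5-negative cells. The difference of these changes was 2.78 with a 95% interval of 1.85 to 3.71 and an adjusted p of 0.0266. Meis2, a homeobox factor, changed by 1.59 ± 0.12 (3.01-fold, adjusted p = 0.00413), with 2.38 in Lgr5-positive and 0.80 in Lgr5-negative cells. Hopx changed by 0.91 ± 0.09 and Klf5 by 0.66 ± 0.10. Of the lower ones, Lmx1b changed by −1.24 ± 0.15 (2.37-fold, adjusted p = 0.0126), Hoxc13, a factor of the hair shaft, by −0.91 ± 0.10, and Prdm1 by −0.81 ± 0.09. The calls were lost without U1 for Hopx, Klf5 and Prdm1 (adjusted p 0.0501 to 0.107), without U2 for Hopx, Klf5, Hoxc13 and Prdm1 (0.0549 to 0.116) and without V2 for Klf5 (0.0695).

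Signalling regulators and genes of other functions also rose. Of 35 tested G protein regulators and second messengers, 3 were shared and higher and 0 lower. That is 8.57%, against 5.87% of all tested genes, and the list's median was 0.08. Rgs4, which shortens signalling by G protein alpha subunits, had levels of 5.61 and 5.95 untreated and 10.01 and 8.68 treated in Lgr5-positive cells, and 7.52 and 6.80 untreated and 10.76 and 10.53 treated in Lgr5-negative cells. All treated arrays were at 8.68 or above and all untreated arrays at 7.52 or below, a change of 3.52 ± 0.26 (11.5-fold, adjusted p = 0.00383); its other probe sets gave 3.99 and 2.90. Stk39, a kinase that regulates ion cotransporters, changed by 2.48 ± 0.18 (5.58-fold, adjusted p = 0.00361). Ackr4, a receptor that scavenges chemokines, had levels of 7.96 to 9.41 untreated and 9.99 to 11.27 treated, a change of 1.92 ± 0.14 (3.77-fold, adjusted p = 0.00392), with 1.95 in Lgr5-positive and 1.88 in Lgr5-negative cells. Pdlim4, an actin-associated protein, changed by 2.35 ± 0.16 (5.09-fold, adjusted p = 0.00327) and Man1c1, a mannosidase of the Golgi, by 1.97 ± 0.12 (3.92-fold, adjusted p = 0.00263). Hpgds, the prostaglandin D2 synthase, had levels of 5.77 and 6.07 untreated and 9.88 and 9.71 treated in Lgr5-positive cells, and 7.75 and 7.28 untreated and 9.54 and 9.66 treated in Lgr5-negative cells, a change of 2.98 ± 0.09 (7.91-fold, adjusted p = 0.000946). It rose more in Lgr5-positive cells, and the difference of the changes was 1.79 with a 95% interval of 1.19 to 2.39 and an adjusted p of 0.0268. Its changes were 3.88 in Lgr5-positive and 2.09 in Lgr5-negative cells. Those of the macrophage marker C1qb were 3.96 and 1.99. The part of macrophages in the change of Hpgds was not tested. Vegfa changed by 1.27 ± 0.10 (2.41-fold, adjusted p = 0.00525) and the chaperone Hsph1 by 1.29 ± 0.10 (2.45-fold, adjusted p = 0.00392). Scube2, a secreted protein that helps release Hedgehog ligands and was named after its values were seen, had levels of 4.88 to 5.17 untreated and 6.29 to 6.54 treated. Its change was 1.43 in Lgr5-positive and 1.45 in Lgr5-negative cells (adjusted p of the mean = 0.0034), and the difference of these changes was −0.02 with a 95% interval of −0.46 to 0.41 and an adjusted p of 0.961. Its untreated arrays lay close to the filter level of 4.85, so the size of the rise in each population is bounded by the background. The same limit holds for the comparison between the populations. Cd55, which protects cells from complement, had levels of 6.68 and 6.72 untreated and 8.73 and 8.70 treated in Lgr5-positive cells, and 6.13 and 6.06 untreated and 8.17 and 8.30 treated in Lgr5-negative cells, and the 8 arrays fell into groups of treatment with little spread, a change of 2.07 ± 0.09 (4.21-fold, adjusted p = 0.00147).

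Some antigen presentation and interferon genes rose in both populations. Of 13 tested members of the MHC class I list, 4 were shared and higher and 0 lower, all 13 had a mean change above 0 and the median was 0.63, with 0.51 in Lgr5-positive and 0.53 in Lgr5-negative cells. Nlrc5, the transactivator of class I genes, had levels of 8.90 to 9.33 untreated and 10.13 to 10.57 treated, a change of 1.23 ± 0.13 (2.34-fold, adjusted p = 0.00907), with 1.17 in Lgr5-positive and 1.28 in Lgr5-negative cells. H2-T23, the nonclassical class I molecule whose promoter is shown above, had levels of 9.40 to 9.99 untreated and 10.23 to 10.31 treated, a change of 0.67 ± 0.11. The proteasome genes Psmb10 (0.65 ± 0.13) and Psme2 (0.63 ± 0.12) were the other members. The classical genes H2-K1 (0.09 ± 0.09) and H2-D1 (0.13 ± 0.09), near the top of the signal range, did not pass the threshold. Of 19 tested interferon genes, 2 were shared and higher (Irf9 and Cxcl9) and 0 lower. That is 10.5%, against 5.87% of all tested genes, and the median was 0.58. The chemokine Cxcl9, induced by interferon gamma, had levels of 4.84 and 4.71 untreated and 5.84 and 6.74 treated in Lgr5-positive cells, and 5.31 and 4.98 untreated and 8.17 and 7.61 treated in Lgr5-negative cells, a change of 2.13 ± 0.12 (4.37-fold, adjusted p = 0.00244). Its untreated Lgr5-positive arrays were below the filter level, and raised to it they gave a mean change of 2.09. The macrophage markers moved with these genes, with list means of 5.91 to 7.26 untreated and 7.82 to 8.64 treated, and their part in these changes was not tested. Calls of antigen presentation and interferon genes were lost without U1 for H2-T23, Psmb10, Psme2 and Irf9 (adjusted p 0.0801 to 0.147), without U2 for Nlrc5, H2-T23, Psmb10, Psme2 and Irf9 (0.0575 to 0.133), without V1 for H2-T23, Psmb10 and Psme2 (0.0833 to 0.112) and without V2 for H2-T23, Psmb10, Psme2 and Irf9 (0.0544 to 0.125).

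Most macrophage and dendritic cell markers rose. Of 28 tested (31 listed), 18 were shared and higher and 0 lower, all 28 had a mean change above 0, and in 23 of them the populations changed in the same direction. The median was 1.31, with 2.22 in Lgr5-positive and 0.72 in Lgr5-negative cells. C1qb, a subunit of complement C1q made by macrophages, had levels of 5.42 and 5.32 untreated and 9.37 and 9.30 treated in Lgr5-positive cells, and 6.58 and 6.85 untreated and 8.50 and 8.91 treated in Lgr5-negative cells, a change of 2.98 ± 0.10 (7.87-fold, adjusted p = 0.00111). C1qa (2.25 ± 0.15) and C1qc (2.14 ± 0.11) rose with it, at adjusted p = 0.00325 and 0.00197. Lysozyme (Lyz2) had levels of 4.85 and 3.63 untreated and 11.02 and 10.93 treated in Lgr5-positive cells, and 6.78 and 7.48 untreated and 8.39 and 8.45 treated in Lgr5-negative cells. The untreated Lgr5-positive arrays were the lowest and the treated ones the highest, and the change was 6.73 in Lgr5-positive and 1.29 in Lgr5-negative cells. The difference of these changes was 5.44 with a 95% interval of 4.20 to 6.68 and an adjusted p of 0.0112. Both untreated Lgr5-positive arrays were below the filter level, and raised to it they gave a change of 6.12 there and a difference of 4.83. Cathepsin S (Ctss) changed by 5.62 in Lgr5-positive and 0.72 in Lgr5-negative cells and Tyrobp by 3.98 in Lgr5-positive and 0.70 in Lgr5-negative cells. The class II genes H2-Ab1 (1.43 ± 0.09) and Cd74 (2.20 ± 0.18) rose at adjusted p = 0.00325 and 0.00477, with H2-Ab1 at 2.13 in Lgr5-positive and 0.73 in Lgr5-negative cells. The pan-leukocyte gene Ptprc changed by 2.00 ± 0.30 (3.99-fold, adjusted p = 0.0246), and Csf1r, the receptor for macrophage growth factors, by 0.86 ± 0.13 (adjusted p = 0.0227). The calls were lost without U1 for Ptprc, Csf1r, Fcer1g, Laptm5, Cybb and H2-Aa (adjusted p 0.0614 to 0.119), without U2 for Ptprc, Csf1r, Fcer1g, Laptm5, Cybb and H2-Aa (0.066 to 0.172) and without V1 for Csf1r and H2-Aa (0.0526 to 0.0553). In contrast, none of the 10 T cell markers was shared, and Cd3e was at 4.81 to 6.12 untreated and 4.93 to 5.62 treated. Cd3e changed by 0.55 in Lgr5-positive and −0.75 in Lgr5-negative cells, and Cd3g by 0.47 and −0.53. For both genes the treatments did not overlap within either population, and neither gene was called in either. The T cell list's mean was higher in treated Lgr5-positive arrays and overlapped in Lgr5-negative ones.

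Chemokines rose more often than they fell: of 32 tested chemokines and cytokines, 7 were shared and higher and 1 (Cxcl1) lower. Ccl27a, a chemokine made by keratinocytes, had levels of 8.61 to 9.90 untreated and 10.96 to 11.48 treated, a change of 2.00 ± 0.21 (4.01-fold, adjusted p = 0.00959), with other probe sets at 1.29, 0.28 and 0.14. Cxcl1, a neutrophil attractant, changed by −0.58 in Lgr5-positive and −2.26 in Lgr5-negative cells, and the difference of these changes was 1.68 with a 95% interval of 1.01 to 2.35 and an adjusted p of 0.0422. Ccl2 (0.83 ± 0.11), Ccl7 (0.54 ± 0.09), Ccl9 (2.09 ± 0.27), Cxcl16 (0.62 ± 0.12) and Il34 (0.73 ± 0.12) were higher, and their calls were lost without U1 for Ccl2, Ccl7, Ccl9, Cxcl16 and Il34 (adjusted p 0.0622 to 0.137), without U2 for Ccl2, Ccl7, Ccl9, Cxcl16 and Il34 (0.0724 to 0.163), without V1 for Ccl7 and Cxcl16 (0.0935 to 0.098) and without V2 for Ccl7, Cxcl16 and Il34 (0.0646 to 0.112). The macrophage markers moved with the chemokines too, and their part was not tested. Other markers that moved, besides S100a9, were Vim, at 1.99 ± 0.11 (3.98-fold, adjusted p = 0.00239) and 3.26 in Lgr5-positive and 0.73 in Lgr5-negative cells, and Fbln1, at −1.37 ± 0.26 (adjusted p 0.145 without U1 and 0.18 without U2), both from the fibroblast list, of which Col1a1 changed by −0.28 ± 0.10, and Mitf, at 1.45 ± 0.16, from the melanocyte list, of which Dct changed by −0.43 ± 0.13 and Sox10 by −0.06 ± 0.09.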

How the data were processed

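RNA of sorted cells was amplified and measured on Affymetrix mouse arrays, 1 array per mouse and population. Signals on a log2 scale were deposited by the authors after RMA (background correction, quantile normalisation and probe set summary), per the submitters' processing notes, which name no version, and were used unchanged, with array medians between 6.13 and 6.20. Precision is limited by how few arrays there are. Of 45141 probe sets, 28898 had 1 gene symbol, 551 several and 15692 none. They gave 17097 genes, each read by its brightest probe set, and 14403 exceeded the level of 4.85 (25th percentile over the whole table) on 2 or more arrays.

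Mouse means were fitted with limma 3.58.1 in R 4.3.3 (2 residual and 3.37 prior degrees of freedom). A model of the 4 group means (4 residual degrees of freedom) gave each population's change and their difference. P-values are two-sided, with Benjamini-Hochberg adjustment over all genes. SE is the model's standard error of a log2 change. Values of several genes, among them Wif1, Sox13, Cldn10, Lyz2, Ccnd2, Lamb1, Ccl27a, Stk39, Ackr4 and Ncam1, come from a probe set type that can bind more than 1 transcript.

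Named genes were the 15 shared genes with the largest smaller change in each direction, up to 4 shared genes per list and direction, pathway, sort and marker genes, and the largest differences. The comparison, the members and the 48 lists were chosen with earlier results of these data known. On simulated data with 100 changed genes per size among 14403 genes, 69% of 2-fold and 94% of 4-fold changes were recovered. Alternatives changed the filter, probe sets, scaling, variance model, block and shared rule, and left out each mouse. Promoters come from a RefSeq table of GRCm38.p6.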

Additional observations from a re-analysis of the deposited data

Results flagged for a closer look

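A difference between the changes in Lgr5-positive and Lgr5-negative cells, tested as an interaction in the model of the 4 group means, was called at an adjusted p below 0.05 for 22 of the genes named by rank or pathway, against 1.4% of all genes tested. Of these, 19 were named for a large difference or for opposite directions, so their differences are descriptions; Lgr5, Hpgds and C1qb were named on other grounds. The log2 change in Lgr5-positive minus that in Lgr5-negative cells was above 0 for Lyz2 (5.44), Cxcl2 (5.03), Ctss (4.91), Pf4 (4.26), Sprr2d (3.55), Prss23 (3.51), Robo1 (3.32), Inhba (3.30), Ccl6 (3.29), Tyrobp (3.28), Elovl4 (2.12), Lgr5 (2.06), C1qb (1.97), Tent5b (1.94), Mmp2 (1.87) and Hpgds (1.79). It was below 0 for Spry4 (−2.03), Sox13 (−2.14), Adamtsl1 (−2.21), Myrip (−2.28), Tbx1 (−2.39) and Cldn10 (−2.47). Lyz2, Ctss, Tyrobp and C1qb are members of the macrophage list. In Cxcl2, Robo1, Inhba, Elovl4, Tent5b and Mmp2 the populations moved in opposite directions, as the rule that named these 6 genes asked for. Cxcl2 changed by 3.14 in Lgr5-positive and −1.89 in Lgr5-negative cells and Robo1, a receptor for Slit proteins, by 2.19 in Lgr5-positive and −1.13 in Lgr5-negative cells. Among the shared genes, the number with a called difference fell from 70 to between 0 and 8 when 1 mouse was left out.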

How the results depend on the processing

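No named gene with a call changed direction under the alternatives it was run in. The 512 higher and 462 lower called genes and the 436 and 409 shared genes moved by more than 1.5 times under these settings. With all 8 arrays taken as independent, 914 and 827 were called and 750 and 679 shared. With the mouse as a random block, 818 and 750 were called and 684 and 629 shared. Against a fold of 1.5, 75 and 69 were called, 73 and 68 shared, and 39 shared genes kept a called difference (70 in the main analysis). A call required in each population separately left 113 and 108 shared, 19 with a called difference. Leaving out 1 mouse gave 160 to 399 higher and 170 to 334 lower called genes, 149 to 365 higher and 165 to 320 lower shared genes, and 0 to 8 shared genes with a called difference; the lowest counts of called and shared genes came without untreated mouse 2. The 97 higher and 93 lower genes with at least 2-fold changes and no overlap in each population, which use no p-value, ranged over 78 to 116 and 80 to 108. The labels do not say whether a mouse number marks a shared origin across treatments. The deviations of same-numbered mice had a correlation of −0.11 over genes. With the number as a replicate block, 353 higher and 326 lower genes were called and 304 and 295 shared; with the numbers crossed, an alternative added after the data were seen, 519 and 503 were called and 435 and 419 shared. Of 156 named genes with a call, 59 kept it under every alternative that could be run on them and 73 without any 1 mouse; the cause of the losses was not tested. Signals near or below the filter level limit the size of a fall in Tll1, Cldn10, Ereg, Krtap17-1 and Lgr5 and of a rise in Lyz2, Ctss, Cxcl9, Ccl7, Ptprc, H2-Aa and Scube2. In 74 shared genes at least 1 array was at or below that level, Krtap17-1 and Scube2 not among them.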
